A study of Mus musculus with 20 samples.

Results

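A set of 10 genes that kidney biologists read as signs of tubule repair and dedifferentiation was measured in whole mouse kidney after 6 daily doses of puberulic acid. They are the transcription factor genes Sox9, Sox4, Sox11, Pax2, Pax8, Foxm1, Runx1 and Myc and the surface protein genes Cd24a and Prom1. They were chosen by symbol, with earlier results of these data known. All 10 were found, each under 1 identifier, among the 55822 genes of the deposited count table. The gene lists set beside them were chosen with the same knowledge, so the comparisons with all tested genes below are descriptions only. Poly(A) RNA was sequenced from whole kidneys of male C57BL/6J mice, an inbred strain, which were 8 weeks old at the start. The series has 20 samples, 5 in each of 4 groups: PBS as control, Choleste-Help (a dietary supplement) from a normal lot or from a toxic lot at 1000 mg per day, and puberulic acid, a mould-derived tropolone, at 1 mg per day. All groups were dosed for 6 days and kidneys were taken on day 7. One label field gives oral dosing and another allows gavage or intraperitoneal injection, so the route is not known sample by sample. The 5 control and 5 puberulic acid samples are analysed here. The supplement lots are not analysed here, because the column names do not show which lot they hold. The labels do not tie each sample to its own mouse in words, so the p-values measure the spread between these samples.

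A tubule cell that survives injury can lose part of its mature program, re-enter the cell cycle and later redifferentiate. SOX9 is switched on in such cells, SOX4 and SOX11 are close relatives of each other, and PAX2 and PAX8 are factors of the embryonic nephron that adult tubule cells keep to differing degrees. CD24 and CD133, the product of Prom1, mark scattered tubular cells that have been described as progenitor-like. FOXM1 drives genes of G2 phase and mitosis, MYC drives growth and ribosome production, and RUNX1 is best known from blood cells but also appears in injured epithelium.

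Of the 10 genes, 7 rose with puberulic acid and 3 did not pass the test. Sox9 and Runx1 rose most, by 59.4-fold and 57.6-fold, then Sox11 by 16.9-fold, Foxm1 by 12.7-fold, Myc by 8.18-fold, Sox4 by 5.41-fold and Cd24a by 2.93-fold. Pax2, Pax8 and Prom1 were not called, at 1-fold, 1.14-fold and 0.923-fold. The 10 genes' median log2 fold change was 2.73, against 0.05 over all 16266 genes tested. Among all tested genes, 34.2% were called higher and 31.1% lower at an adjusted p under 0.05 (quasi-likelihood test of edgeR, Benjamini-Hochberg), so a call alone is common in these kidneys. In all, 18.7% of tested genes were both called higher and at least 2-fold higher, which all 7 rising genes were. None of the 10 was called lower. The share of tested genes with a larger log2 fold change was 1.3% for Sox9, 1.32% for Runx1, 2.76% for Sox11, 3.42% for Foxm1, 4.73% for Myc, 6.88% for Sox4 and 12.7% for Cd24a.

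The direction of small differences depends on how libraries are scaled. Levels here are counts per 1000000 counts (CPM) after libraries were scaled by TMM (trimmed mean of M-values), with factors of 0.827 to 0.848 in the controls and 1.17 to 1.26 with puberulic acid. Scaled to total counts alone, the median of all tested genes moves to 0.56 on the log2 scale, and the calls change from 5564 higher and 5058 lower to 9179 higher and 2526 lower. On that scale all 10 genes were called higher, beside 56.4% of all tested genes, with 15.5% called lower. The CPM ranges of the groups were apart for 50.1% of tested genes, against 7 of these 10. Total estimated counts per sample were 18409877 to 22725274 in the controls and 19897287 to 24705587 with puberulic acid, and did not differ beyond the spread of the samples (exact two-sided permutation p = 0.206).

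**Figure D1:**
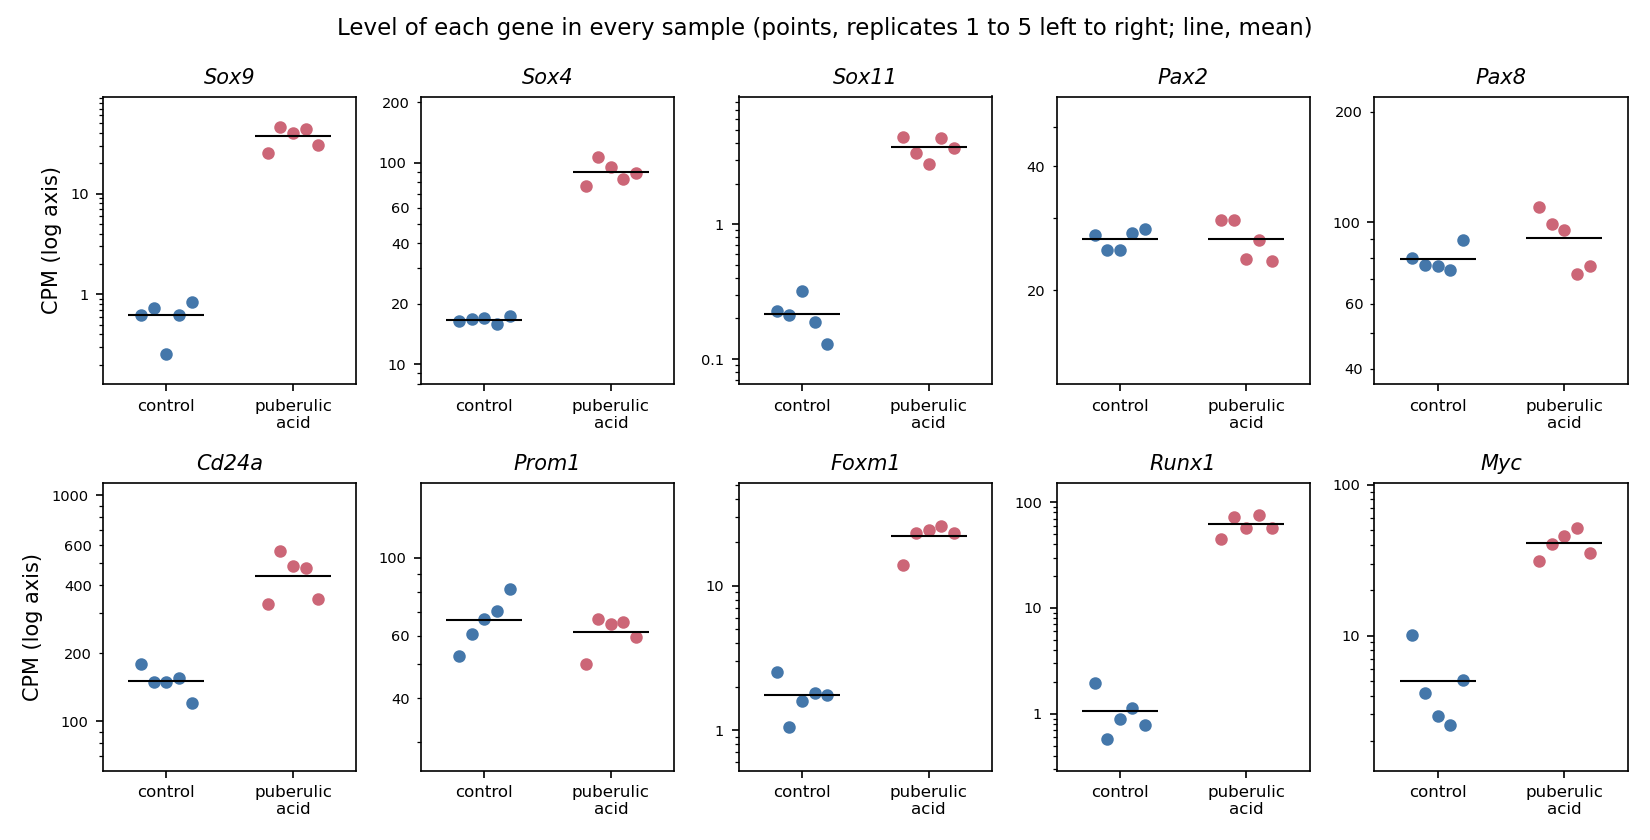
Level of each of the 10 genes in every sample, in CPM (logarithmic axes that differ between panels), for 5 control and 5 puberulic acid samples. Points are samples in order of replicate number and lines are group means. Sox9, Sox4, Sox11, Cd24a, Foxm1, Runx1 and Myc show no overlap between the groups, and Pax2, Pax8 and Prom1 do.

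Marker genes of several cell types moved with the groups, in data where 34.2% of all tested genes were called higher and 31.1% lower. All 9 proximal tubule markers fell, and their summed level was 12464 to 15771 CPM in the controls and 1063 to 1965 CPM with puberulic acid. All 4 general leukocyte markers rose, from a sum of 31.4 to 64.1 CPM to a sum of 85.8 to 304 CPM. Of 7 fibroblast and smooth muscle markers 5 rose, while Pdgfra and Myh11 were not called, at 0.33 and -0.75 on the log2 scale. The sum of the 7 was 138 to 229 CPM in the controls and 493 to 1709 CPM with puberulic acid. Col1a2, Col1a1 and Acta2 had the highest treated means of the 7, at 402, 353 and 192 CPM. Other markers moved less: of 5 podocyte markers 1 was called lower and 4 were not called, and the same held for 5 endothelial markers. Of 4 loop of Henle markers 2 were called lower and 2 were not called, with Umod at 0.06 on the log2 scale. In bulk tissue, fewer cells of a type and less RNA per cell cannot be told apart. The part of these shifts in the results below was not tested. Among 5 kidney injury markers, all 5 rose, including Havcr1, the gene of kidney injury molecule 1, from 1.99 to 1219 CPM, Lcn2, the gene of neutrophil gelatinase-associated lipocalin, from 2.77 to 456 CPM, and Krt20, an intermediate filament gene, from 0.2 to 415 CPM.

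Sox9 encodes an HMG-box factor of cartilage, duct and injured tubule cells. It was close to silent in the controls, at 0.628, 0.738, 0.255, 0.623 and 0.844 CPM in replicates 1 to 5, which is 4 to 14 counts per library. With puberulic acid it stood at 25.5, 46.2, 40.2, 43.6 and 30.5 CPM. Every treated sample lay far above every control, with replicate 1 the lowest treated sample and replicate 2 the highest. The mean went from 0.618 ± 0.222 to 37.2 ± 8.85 CPM (SD, n = 5 each), a log2 fold change of 5.89 ± 0.27 (SE) or 59.4-fold with a 95% interval of 39.8 to 88.7 (edgeR adjusted p = 1.23e-08). Summed over the libraries, 52 control counts faced 4738 with puberulic acid.

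Sox4 encodes an HMG-box factor needed for heart and B-cell development. Its control levels were tightly grouped at 16.4, 16.8, 16.9, 15.9 and 17.3 CPM. The treated samples held 76.5, 107, 95.9, 82.8 and 88.9 CPM. The lowest treated sample was 4.41 times the highest control. The log2 fold change was 2.44 ± 0.10 (SE), or 5.41-fold with a 95% interval of 4.66 to 6.28 (edgeR adjusted p = 5.7e-09). Of the 10 genes Sox4 had the smallest relative spread in the controls, with a coefficient of variation of 3.32%.

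Sox11, the close relative of Sox4, is mainly a gene of embryonic tissues and neurons. It was near the counting floor in the controls, at 0.228, 0.211, 0.318, 0.187 and 0.130 CPM, where 3 counts correspond to 0.158 to 0.195 CPM. The treated samples held 4.42, 3.37, 2.80, 4.32 and 3.70 CPM. The groups were well apart, and here replicate 1 was the highest treated sample. The fitted log2 fold change was 4.08 ± 0.27 (SE; edgeR adjusted p = 1.71e-07). From 18 control counts and 485 treated counts, the ratio of summed levels was 17.4 with an exact 95% interval of 10.9 to 29.6 that covers counting error only. Sox11 stayed the least abundant of the 10 genes per length in both groups.

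The sequences of the Sox4 and Sox11 promoters are shown because both of these related genes rose, from very different levels and by different amounts. Sox4 counts were 53.2 to 134 times Sox11 counts within the control libraries and 17.3 to 34.3 times with puberulic acid, a ratio formed after the values were seen and not tested. Each is the RefSeq window of 300 bases, 250 before the gene's start and 50 after it, in build GRCm38.p6. They are Sox4 at chr13:28953650-28953949 and Sox11 at chr12:27342669-27342968, both on the minus strand and written 5′ to 3′ along the gene. Capitals mark the CCAAT box (CCAAT, or ATTGG on the other strand), a common promoter element, and in Sox11 also TTTGAA, a form of the cell cycle homology region (CHR) found in promoters of many cell cycle genes.
Sox4: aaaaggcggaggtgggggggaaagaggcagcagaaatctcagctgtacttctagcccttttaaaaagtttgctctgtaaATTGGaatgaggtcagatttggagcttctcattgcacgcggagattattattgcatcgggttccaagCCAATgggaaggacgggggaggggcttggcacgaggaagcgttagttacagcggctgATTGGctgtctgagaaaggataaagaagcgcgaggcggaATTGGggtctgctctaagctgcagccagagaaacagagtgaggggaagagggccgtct
Sox11: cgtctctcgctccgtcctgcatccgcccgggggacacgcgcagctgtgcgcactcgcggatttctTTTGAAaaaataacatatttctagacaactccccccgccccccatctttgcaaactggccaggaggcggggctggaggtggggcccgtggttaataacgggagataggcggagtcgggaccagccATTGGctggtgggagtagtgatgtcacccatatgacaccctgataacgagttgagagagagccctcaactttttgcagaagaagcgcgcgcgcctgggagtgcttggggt
The Sox4 window held 4 CCAAT matches and the Sox11 window 1, together with 1 CHR match, and no matches overlap each other. Across all 32851 promoter windows of the same length, 37.4% held a CCAAT box and 17.9% a CHR match, both strands searched. Neither window held AP-1 (TGACTCA or TGAGTCA), an E-box (CACGTG) or the short SOX motif ACAAT, which were in 5.2%, 7.15% and 31% of windows. A match is a description of letters and not a site shown to be bound.

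Of 16 other SOX genes listed, 7 could be tested, 0 were called higher and 3 were called lower, with a median log2 fold change of -0.38. Over all tested genes 34.2% higher and 31.1% lower were called. Sox12, the third member of the Sox4 and Sox11 group, fell from a mean of 17.4 to 12.1 CPM (log2 fold change -0.53 ± 0.12 SE, edgeR adjusted p = 0.00165). Sox13 fell by 0.73 and Sox17, an endothelial gene, by 0.59 on the log2 scale. With total-count scaling these 3 were at -0.02, -0.22 and -0.08 and none was called. Sox8 and Sox10, the nearest relatives of Sox9, were too low to test, at 0.472 and 0.135 CPM in the controls and 0.48 and 0.118 CPM with puberulic acid. Cartilage matrix genes that SOX9 drives in chondrocytes stayed low as well: 7 of 9 were too low to test, the other two were not called, and their summed level was 1.12 to 2.73 CPM in the controls and 1.34 to 3.24 CPM with puberulic acid.

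Runx1 encodes the DNA-binding subunit of core-binding factor. Control samples held 1.94, 0.580, 0.891, 1.12 and 0.779 CPM, with replicate 1 the highest. Treated samples held 44.9, 72.8, 57.3, 76.4 and 56.9 CPM. The lowest treated sample was 23.1 times the highest control, and the mean went from 1.06 ± 0.528 to 61.7 ± 12.9 CPM (SD, n = 5 each). The log2 fold change was 5.85 ± 0.28 (SE), or 57.6-fold with a 95% interval of 37.9 to 87.7 (edgeR adjusted p = 1.67e-08).

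Leukocyte markers rose in the same samples, and their part in the Runx1 rise was not tested. Ptprc, the pan-leukocyte CD45 gene, rose by 1.92 on the log2 scale, Coro1a by 2.43, Laptm5 by 2.16 and Cd53 by 2.45. Of 6 macrophage markers 4 rose, Fcgr1 by 4.03, Cd68 by 3.83, Itgam by 3.78 and C1qa by 2.47. Adgre1 and Csf1r were not called, at 1.33 and 0.27 (edgeR adjusted p = 0.0564 and 0.234). Csf1r, the most abundant of the 6 in the controls, went from a mean of 59.9 to 72.1 CPM. With total-count scaling all 6 were called higher, beside 56.4% of all tested genes on that scale. Fcgr1 was at 4.97 without control replicate 1 and Itgam at 4.50 without control replicate 4. The summed level of the 6 markers went from 62.1 to 121 CPM in the controls to 127 to 382 CPM with puberulic acid. Among 9 RUNX relatives and partners, 5 were called higher and 0 lower, beside 34.2% higher and 31.1% lower over all tested genes, with a median log2 fold change of 0.64. Runx3, a gene of T and NK cells, rose from 1.06 to 6.71 CPM (2.66 ± 0.37 SE, edgeR adjusted p = 5.77e-05). Of 5 T cell markers, 2 were called higher and 3 were not called, and 0 had group ranges that were apart. Runx2, the bone-forming relative, rose from 0.877 to 4.12 CPM (2.22 ± 0.33 SE, edgeR adjusted p = 9.6e-05). Cbfb, the shared partner subunit, rose from 22.1 to 46.3 CPM (1.06 ± 0.14 SE). With total-count scaling 8 of the 9 were called higher, beside 56.4% of all tested genes on that scale.

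Runx1 has 2 promoters far apart, and the deposited values are per gene, so their output cannot be told apart here. Both RefSeq windows are shown because the gene had one of the 2 largest rises. They lie on the minus strand at chr16:92826025-92826324 (distal) and chr16:92697280-92697579 (proximal). Capitals mark CCAAT boxes and, in the distal window, the E-box CACGTG, a palindrome bound by MYC with MAX among other factors, which stands directly beside a CCAAT box without overlapping it.
Runx1 distal: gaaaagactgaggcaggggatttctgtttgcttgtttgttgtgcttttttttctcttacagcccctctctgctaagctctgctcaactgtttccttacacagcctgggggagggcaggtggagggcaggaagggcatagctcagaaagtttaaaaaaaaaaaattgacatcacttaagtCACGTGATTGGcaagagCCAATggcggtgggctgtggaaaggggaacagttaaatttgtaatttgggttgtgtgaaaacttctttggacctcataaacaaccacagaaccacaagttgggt
Runx1 proximal: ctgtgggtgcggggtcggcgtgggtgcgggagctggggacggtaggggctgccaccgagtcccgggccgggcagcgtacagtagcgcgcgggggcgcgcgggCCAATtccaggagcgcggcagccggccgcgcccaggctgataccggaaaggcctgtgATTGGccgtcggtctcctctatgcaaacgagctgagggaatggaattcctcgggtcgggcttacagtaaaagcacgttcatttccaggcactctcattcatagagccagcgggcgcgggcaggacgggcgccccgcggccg
Each window held 2 CCAAT boxes and no AP-1, SOX or CHR match. The distal window was 45% G and C and the proximal one 69%, against a median of 52.7% over all windows.

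Myc encodes the growth-promoting basic helix-loop-helix factor. Its control levels were the most scattered of the 10 genes, at 10.1, 4.17, 2.93, 2.55 and 5.06 CPM, a coefficient of variation of 61.3%. Treated samples held 31.1, 40.5, 45.4, 51.5 and 35.3 CPM. Control replicate 1 was the highest control, and the lowest treated sample was still 3.08 times that level. The log2 fold change was 3.03 ± 0.33 (SE), or 8.18-fold with a 95% interval of 4.96 to 13.5 (edgeR adjusted p = 7.45e-06). It was 3.45 without control replicate 1.

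Of 12 genes in the MYC and MAX network, 5 were called higher and 3 lower, not far from the shares over all tested genes, 34.2% and 31.1%, with a median log2 fold change of 0.13. Mxd3, a MAX partner expressed in dividing cells, rose by 2.34 ± 0.32 (SE) from 0.604 to 3.09 CPM, Mga by 1.20 ± 0.12 and Mycn by 0.82 ± 0.20 on the log2 scale. Mlx, the partner of glucose-sensing factors, fell by 1.08 ± 0.12 (SE) from 55.2 to 26.1 CPM, and Mxi1, a MYC antagonist, fell by 0.67 ± 0.11. With total-count scaling 9 were called higher and 1 lower, beside 56.4% higher and 15.5% lower over all tested genes on that scale. On it Mxi1 was at -0.17 and not called.

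Of 20 growth genes that MYC is known to bind, 16 were called higher and 2 lower, beside 34.2% higher and 31.1% lower over all tested genes, with a median log2 fold change of 0.44. The ribosome-assembly genes Nop56 and Nop58 both rose by 1.56 ± 0.15 (SE) on the log2 scale, to 57.4 and 56.7 CPM, and the RNA helicase gene Ddx21 rose by 1.17 ± 0.09. Odc1, the rate-limiting enzyme of polyamine synthesis, fell from 1138 to 581 CPM (-0.97 ± 0.18 SE, edgeR adjusted p = 0.000588), and Nme1, a nucleoside diphosphate kinase, by 0.48. With total-count scaling Odc1 was at -0.46 (adjusted p = 0.0387) and Nme1 at 0.03. With each sample left out in turn, 12 to 15 of the 20 were called higher, which is under the 16 called with all samples. Most of the rises were small: with an added log2 fold change of at least 1, 3 of the 20 were called higher and 0 lower. On that criterion 18.7% of all tested genes were called higher.

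Foxm1 encodes the forkhead factor of G2 phase and mitosis. Control samples held 2.51, 1.05, 1.59, 1.81 and 1.75 CPM. Treated samples held 14.0, 23.3, 24.4, 25.8 and 23.0 CPM. Puberulic acid replicate 1 stood below the other 4, which were close together, and still 5.59 times above the highest control. The log2 fold change was 3.66 ± 0.24 (SE), or 12.7-fold with a 95% interval of 8.85 to 18.1 (edgeR adjusted p = 1.34e-07).

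The mitotic genes that depend on FOXM1 rose with it: 19 of 19 were called higher, beside 34.2% of all tested genes, by 2.01-fold to 21.8-fold, with a median log2 fold change of 4.01. Plk1, the polo-like kinase of mitotic entry, rose from 0.726 to 15.8 CPM (4.45 ± 0.38 SE, edgeR adjusted p = 1.05e-06). Cenpf, a kinetochore gene, rose by 4.39 ± 0.45 (SE) and Ccnb2, a mitotic cyclin, by 4.28 ± 0.40 on the log2 scale. Their summed level was 46.8, 30.7, 28.3, 29.2 and 35.6 CPM in control replicates 1 to 5 and 168, 370, 431, 509 and 436 CPM in the treated ones. Replicate 1 was again the lowest treated sample.

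The complexes that work with FOXM1 or hold cell cycle genes silent gave 3 of 9 tested genes called higher and 3 lower, near the shares over all tested genes, 34.2% and 31.1%. Mybl2, the B-MYB factor that acts before FOXM1, rose from 1.03 to 7.72 CPM (2.90 ± 0.36 SE, edgeR adjusted p = 2.11e-05), and Lin9 rose by 0.69. Lin52, a core subunit of the same complex, fell by 1.07 and Rbl2, the quiescence repressor p130, fell by 0.95 on the log2 scale. With total-count scaling 7 were called higher and 2 lower, beside 56.4% higher and 15.5% lower over all tested genes on that scale.

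Cd24a encodes a small glycoprotein held in the membrane by a lipid anchor. Control samples held 179, 149, 149, 155 and 121 CPM. Treated samples held 330, 568, 486, 476 and 347 CPM. The groups did not overlap, and treated replicates 1 and 5 were the lowest treated samples. The log2 fold change was 1.55 ± 0.16 (SE), or 2.93-fold with a 95% interval of 2.3 to 3.74 (edgeR adjusted p = 5.21e-06). Related copies of this gene exist in the mouse genome. The counts are estimates made with the program Salmon, and the share of reads given to the copies was not examined, so the level is uncertain to that extent.

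Prom1 encodes CD133, a membrane protein of microvilli and cilia. Control samples held 52.8, 60.9, 67.1, 70.5 and 81.4 CPM. Treated samples held 49.9, 67.2, 64.7, 65.6 and 59.6 CPM. The ranges overlapped, and the log2 fold change of -0.12 ± 0.12 (SE) was not called, with a 95% interval of 0.767-fold to 1.11-fold (edgeR adjusted p = 0.419). With total-count scaling it was called higher, at 0.39 (adjusted p = 0.0135), which is under that scale's median of 0.56. Within libraries, where scaling cancels, Cd24a counts were 1.48 to 3.39 times Prom1 counts in the controls and 5.82 to 8.45 times with puberulic acid. This ratio was formed after the values were seen and was not tested.

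Among other markers of scattered tubular and progenitor-like cells, 11 of 15 tested were called higher and 1 lower, beside 34.2% higher and 31.1% lower over all tested genes, with a median log2 fold change of 1.65. Cd44, the hyaluronan receptor, rose from 2.1 to 89.3 CPM (5.41 ± 0.25 SE, edgeR adjusted p = 1.58e-08). Anxa3, an annexin gene, rose from 12.3 to 158 CPM (3.69 ± 0.18 SE) and Krt19, a simple epithelial keratin, from 1.91 to 20.5 CPM (3.42 ± 0.27 SE). The epithelial genes Krt7, Epcam and Met were not called, at 0.04, 0.12 and 0.14, and with total-count scaling they were called higher, at 0.55, 0.63 and 0.65. Lgr4, a receptor of R-spondins, was the gene called lower, at -0.58, and with total-count scaling it was at -0.08 and not called, while 14 of 15 were called higher, beside 56.4% of all tested genes on that scale. Cd44 is also a leukocyte gene, and the leukocyte markers above rose in the same samples.

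Pax2 is a paired-box factor gene that adult kidney keeps mainly in collecting duct cells. Control samples held 27.2, 25.1, 25.1, 27.5 and 28.2 CPM. Treated samples held 29.6, 29.6, 23.8, 26.5 and 23.6 CPM. The group means were both 26.6 CPM, the log2 fold change was 0.00 ± 0.09 (SE), and the 95% interval ran from 0.87-fold to 1.15-fold (edgeR adjusted p = 0.99). All 5 collecting duct principal cell markers were called lower in the same samples, beside 31.1% of all tested genes. Their sum went from 524 to 800 CPM to 259 to 312 CPM.

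Pax8 is the related factor gene expressed along most of the nephron. Control samples held 80.2, 76.3, 76.1, 74.4 and 89.5 CPM. Treated samples held 110, 99.2, 95.3, 72.5 and 76.2 CPM. Treated replicates 1 to 3 lay above every control and replicate 4 below every control. The log2 fold change of 0.19 ± 0.12 (SE) was not called, with a 95% interval of 0.956-fold to 1.37-fold (edgeR adjusted p = 0.169). Within libraries the ratio of Pax8 to Pax2 counts was 2.71 to 3.18 in the controls and 2.74 to 4 with puberulic acid, and these ranges overlap.

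Both Pax genes depend on the scaling: with total counts Pax2 was called higher at 0.51 (adjusted p = 0.00025) and Pax8 at 0.70 (adjusted p = 0.000148), on either side of that scale's median of 0.56. Pax8 was also called with upper-quartile factors, at 0.29 (adjusted p = 0.0445). With total counts taken without mitochondrially encoded and the 10 most abundant genes, Pax2 was at 0.36 (adjusted p = 0.00437) and Pax8 at 0.55 (adjusted p = 0.00146). The 7 other Pax genes listed did not pass the filter on low counts, with a summed level of 0.158 to 0.974 CPM in the controls and 0.483 to 2.24 CPM with puberulic acid. Pax9, at a mean of 0.123 and 0.588 CPM, was called higher with no filter (2.22, edgeR adjusted p = 0.00518) and in all 6 fits with a sample left out in which it passed the filter, at 2.02 to 2.88. In the other 4 such fits it was not tested. The Pax8 promoter is shown as the counterpart of the rising genes' promoters, since it too holds a CCAAT box (in capitals) and none of the other motifs. It is the RefSeq window of the minus strand at chr2:24475550-24475849.
Pax8: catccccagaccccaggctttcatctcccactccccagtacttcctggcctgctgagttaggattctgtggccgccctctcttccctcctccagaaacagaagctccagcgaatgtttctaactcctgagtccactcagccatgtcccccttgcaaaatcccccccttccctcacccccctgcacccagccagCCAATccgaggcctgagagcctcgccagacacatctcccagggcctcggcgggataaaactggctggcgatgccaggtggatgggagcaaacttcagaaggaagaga
RefSeq windows were matched for 6 of the 10 genes, 10 windows in all. The 3 Pax2 windows held none of the motifs searched, and 1 of 2 Prom1 windows held a CCAAT box and an AP-1 match.

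**Figure D2:**
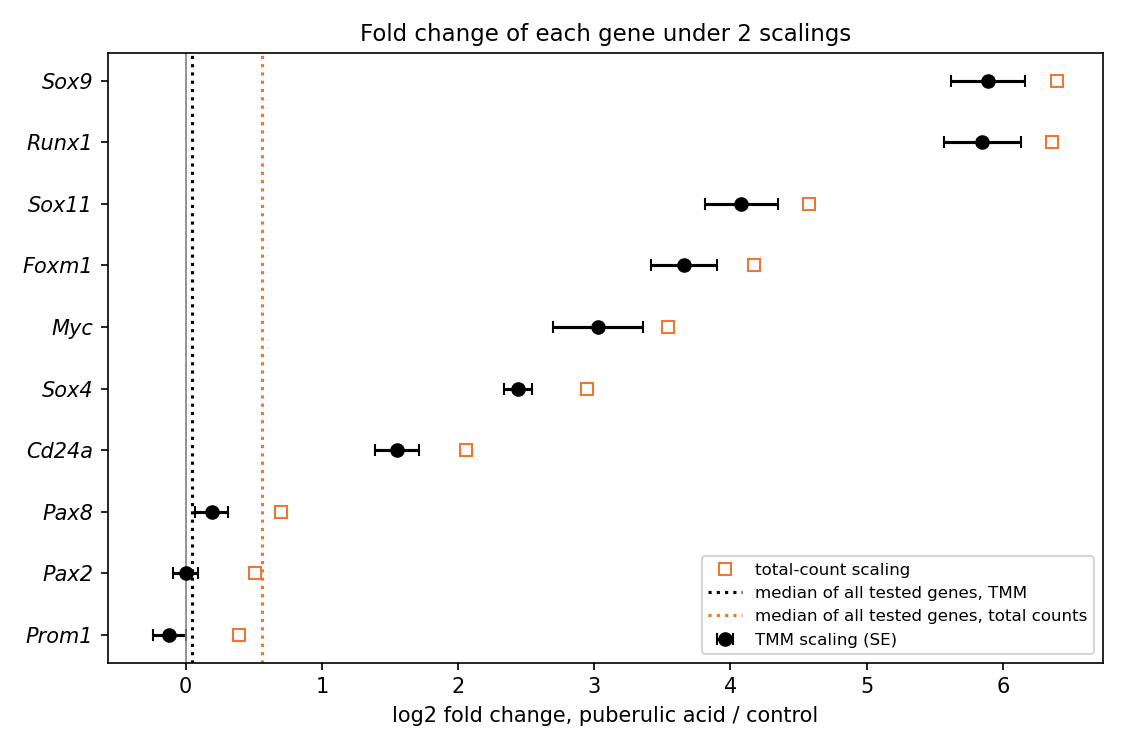
Log2 fold change of each of the 10 genes, puberulic acid against control, under TMM scaling (filled circles, bars are SE) and under total-count scaling (open squares, no error drawn). Dotted lines are the medians of all tested genes on each scale, 0.05 and 0.56. The 7 rising genes lie to the right of zero on both scales, while Pax2, Pax8 and Prom1 move from 0.00, 0.19 and -0.12 to 0.51, 0.70 and 0.39.

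Among the embryonic genes that surround Pax2 and Pax8 in nephron formation, 4 of 23 tested were called higher and 11 lower, beside 34.2% higher and 31.1% lower over all tested genes, with a median log2 fold change of -0.38, and 7 were too low to test, among them the progenitor gene Cited1. Etv4, a target of RET signalling, rose from 1.97 to 9.24 CPM (2.22 ± 0.38 SE, edgeR adjusted p = 0.000302). Etv5 fell from 23.9 to 16.6 CPM (-0.52 ± 0.11 SE, edgeR adjusted p = 0.000978), and Ret itself was too low to test. Cdh6, the cadherin of early proximal tubule, rose from 5.29 to 21.3 CPM (2.00 ± 0.23 SE). Ncam1, a cell adhesion gene of the renal vesicle, rose from 3.61 to 12 CPM (1.73 ± 0.20 SE). Osr1 fell by 2.20 ± 0.38 (SE), Wnt11 by 2.17 ± 0.29 and Bmp7, a survival factor of the nephron, by 1.85 ± 0.23 on the log2 scale. With total-count scaling 7 were called higher and 7 lower, beside 56.4% higher and 15.5% lower over all tested genes on that scale.

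Of 20 genes tied to failed repair and mesenchymal shift, 17 were called higher and 0 lower, beside 34.2% higher and 31.1% lower over all tested genes, with a median log2 fold change of 1.48. Ccl2, a monocyte chemokine, rose from 0.308 to 31.4 CPM (6.63 ± 0.41 SE, edgeR adjusted p = 1.08e-07). Dcdc2a, a cilium gene, rose from 8.91 to 99.2 CPM (3.47 ± 0.27 SE) and Vcam1, an adhesion molecule, from 9.42 to 103 CPM (3.45 ± 0.28 SE). Snai2 and Twist1, factors of epithelial-to-mesenchymal transition, were not called, at 0.15 and 0.60, nor was Sema5a at 0.32. With total-count scaling these 3 were called higher, at 0.67, 1.11 and 0.83. Of the 7 fibroblast and smooth muscle markers above, 5 rose in the same samples, and Pdgfra and Myh11 were not called.

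**Figure D3:**
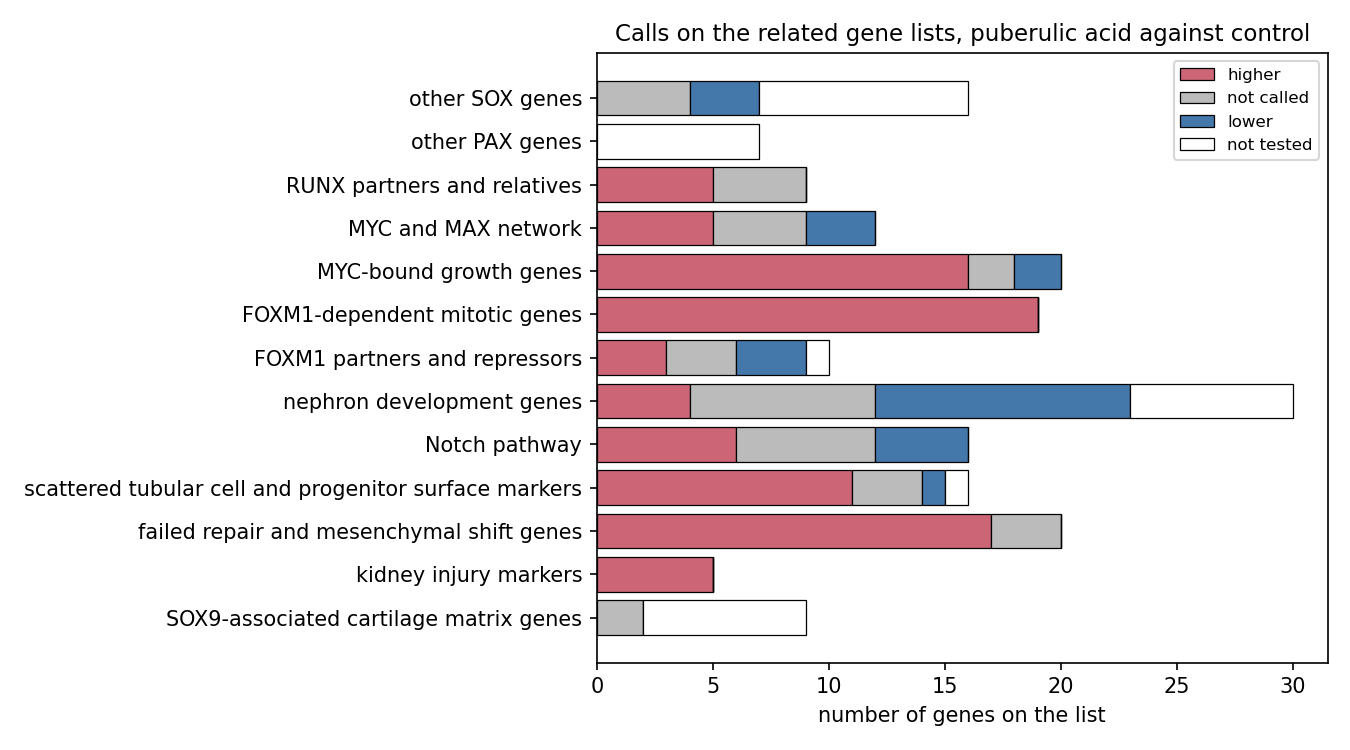
Number of genes called higher, called lower, not called and not tested in each gene list, puberulic acid against control (horizontal axis, genes). The mitotic list is called higher throughout, 19 of 19, while the other SOX genes have 0 higher and 3 lower and the nephron development genes 4 higher and 11 lower.

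Levels can be compared between genes only per length, here as CPM per kilobase of merged exons from another annotation release than the study's, so the order is approximate. In the controls the order was Cd24a at 58.4, Pax8 at 13.1, Prom1 at 9.28, Pax2 at 4.92, Sox4 at 3.48 and Myc at 1.83 CPM per kilobase. Foxm1, Sox9, Runx1 and Sox11 followed at 0.303, 0.149, 0.0884 and 0.0258. The sample ranges overlapped between the neighbours Sox4 and Myc, Foxm1 and Sox9, and Sox9 and Runx1. With puberulic acid Cd24a stayed first at 171 CPM per kilobase, and Sox4 at 18.8, Myc at 15 and Pax8 at 15 shared the next level with overlapping ranges.

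Sox9 at 8.99 and Prom1 at 8.56 CPM per kilobase then overlapped, as did Runx1 at 5.13, Pax2 at 4.92 and Foxm1 at 3.84, each with its neighbour. Sox11 stayed last at 0.447. Sox9 thus went from below the range of Prom1 to overlapping it, and Sox4 from below the ranges of Pax2 and Prom1 to above both. Within libraries, Sox4 counts were 20.5 to 66.5 times Sox9 counts in the controls and 1.9 to 3.01 times with puberulic acid, and Runx1 counts went from 0.139 to 0.439 of Myc counts to 1.26 to 1.8 times them. These ratios do not depend on scaling, were formed after the values were seen and were not tested.

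**Figure D4:**
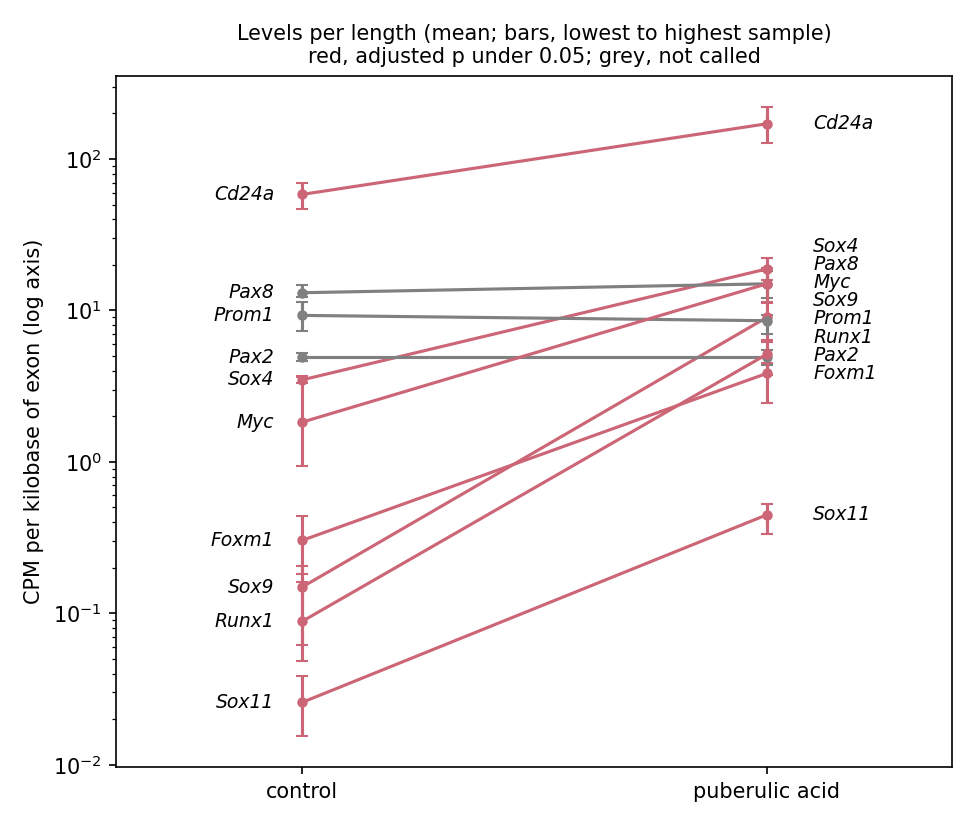
Mean level of each gene per kilobase of exon (logarithmic axis) in the control and puberulic acid groups, with bars from the lowest to the highest of 5 samples. Red lines are genes called by edgeR and grey lines those not called. Cd24a is highest and Sox11 lowest in both groups, and Sox9 rises from 0.149 to 8.99, beside Prom1 at 8.56.

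The treated samples differed among themselves in a shared way. Replicate 1 was the lowest treated sample for 7 genes: Sox9, Sox4, Cd24a, Prom1, Foxm1, Runx1 and Myc. It was the highest for Sox11 and Pax8. Its deviation from the treated mean was -0.62 for Foxm1, -0.51 for Sox9, -0.43 for Runx1, -0.39 for Cd24a and -0.37 for Myc on the log2 scale, against 0.27 for Sox11 and 0.30 for Pax8. The same sample had the highest sum of proximal tubule markers, 1965 CPM against 1063 to 1232 in the other 4, and the lowest leukocyte sum, 85.8 CPM against 171 to 304. Replicate 2 was highest for Sox9, Sox4, Cd24a and Prom1 and equalled replicate 1 to 3 digits for Pax2, and replicate 4 was highest for Foxm1, Runx1 and Myc.

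Among the controls, replicate 1 was highest for Cd24a, Foxm1, Runx1 and Myc, and its leukocyte sum was 64.1 CPM against 31.4 to 59.1 in the others. Replicate 5 was highest for Sox9, Sox4, Pax2, Pax8 and Prom1, with a leukocyte sum of 35 CPM. Replicate 4, with a leukocyte sum of 59.1 CPM, was highest for none of the genes and lowest for Sox4, Pax8 and Myc. Without treated replicate 1 or without control replicate 1, as without each other sample in turn, 7 of the 10 genes were called higher.

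**Figure D5:**
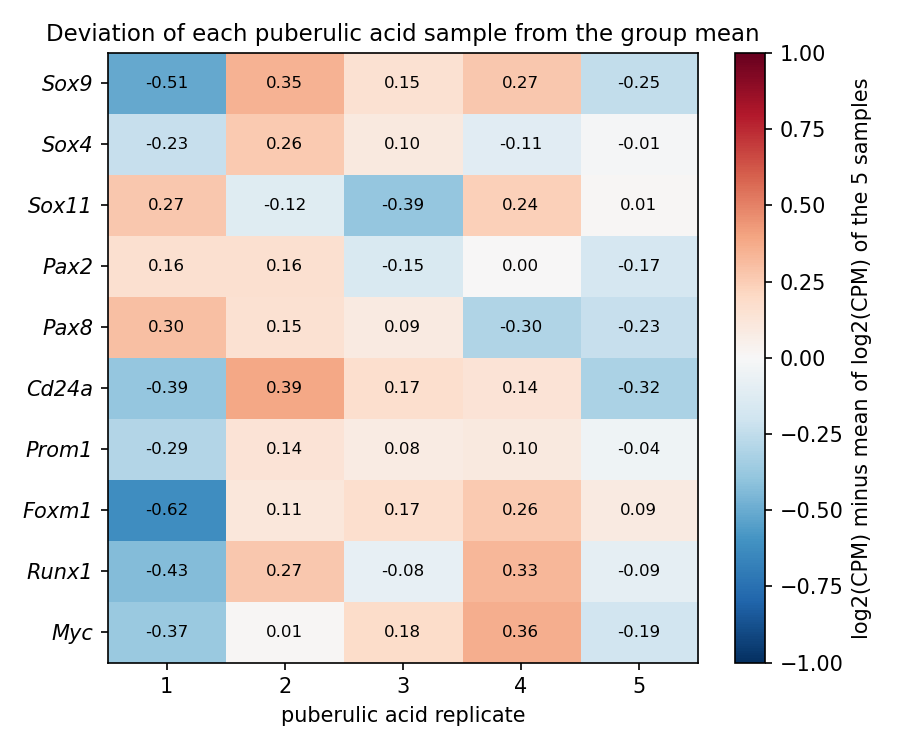
Deviation of each puberulic acid sample from the mean of the 5 for each gene, on the log2 scale (colour and printed value). Replicate 1 is below the mean for 7 genes, down to -0.62 for Foxm1, and above it for Sox11, Pax2 and Pax8.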

How the data were processed

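Whole-kidney poly(A) RNA was measured in 5 control and 5 puberulic acid samples. The authors deposited estimated counts, which are not whole numbers. The submitters' processing notes name fastp 0.22.0, FastQC 0.12.1, MultiQC 1.28, Salmon 1.10.3, DESeq2 and build GRCm39; the annotation is not given in the sources used here. Per the labels' protocols the kit keeps strand. The names of 10 further columns do not show which lot they hold, and these were not used. Symbols were matched for 51344 of 55822 identifiers, which hold 99.29% of the counts; 271 of 272 listed genes were found.

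Counts were rounded and tested with edgeR 4.0.16 (limma 3.58.1, R 4.3.3): filterByExpr, TMM factors, glmQLFit and glmQLFTest, Benjamini-Hochberg adjustment over all 16266 genes kept, called at an adjusted p under 0.05. The script was tested on simulated data. Fold intervals are 95% intervals from the fitted standard error. A floor of 3 counts was 0.158 to 0.195 CPM in controls and 0.0964 to 0.128 CPM with puberulic acid, for counting error only. Lengths are merged exons of GENCODE M21; promoters and motif counts are from RefSeq, GRCm38.p6.

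The members and lists were chosen with earlier results of these data known. All members are named; from each other list, up to 3 called genes per direction with the largest change, provided that their mean reached 1 CPM and the groups did not overlap; other names were chosen after their values were seen. Alternatives were RLE, upper-quartile and total-count scaling, total counts without mitochondrially encoded and the 10 most abundant genes, no filter, a filter of 1 CPM in 5 samples, DESeq2 1.42.0, limma-voom, a robust fit, a replicate block, an added fold threshold and leaving out each sample.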

Additional observations from a re-analysis of the deposited data

Results flagged for a closer look

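Foxm1 in puberulic acid replicate 1 stood apart from its group: 14 CPM against 23 to 25.8 CPM in the other 4 samples, a gap of 0.758 of the group's range, where the limit for 5 samples is 0.71. Of 20 groups of values examined (10 genes in 2 groups), this was the one past the limit, and chance flags about 1 in 20. The same sample had the lowest sum of the mitotic genes, 168 CPM against 370 to 509, the lowest leukocyte sum and the highest proximal tubule sum of the treated group. The part of these in the Foxm1 value was not tested.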

How the results depend on the processing

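With an added log2 fold change of at least 1, 5264 genes were called, 3048 higher and 2216 lower. Total counts gave 9179 higher and 2526 lower, and total counts without mitochondrially encoded and the most abundant genes gave 3131 lower. Leaving out each sample in turn gave 10104 to 11108 called genes, 5103 to 5842 higher and 4881 to 5395 lower. Sox9, Sox4, Sox11, Cd24a, Foxm1, Runx1 and Myc were called higher in all 20 alternative fits. Pax2, near zero, changed sign: -0.01 with RLE and with DESeq2, -0.0015 with no filter, -0.0047 with limma-voom, -0.0035 with the replicate block and -0.06 to 0.03 with a sample left out. Prom1 was at 0.39 with total counts and 0.24 without the mitochondrial and most abundant genes, and Nme1 at 0.03 with total counts; total counts move the median of the tested genes from 0.05 to 0.56. Genes near zero or resting on 1 library also changed sign: with a sample left out, Krt7 ran from -0.04 to 0.10, Met from -0.03 (without puberulic acid replicate 1) to 0.21, Snai2 from -0.06 (without puberulic acid replicate 5) to 0.25 and Upk1b from -1.46 (without puberulic acid replicate 3) to 1.00, and Upk1b was at -0.54 with limma-voom and -0.61 with the replicate block. Among 59 other tested genes that were named and followed through the alternatives, 13 lost their call in some alternative. Col1a1, Col1a2, Acta2, Pdgfra, Myh11, Adgre1, Csf1r, Umod and Etv5 were not followed singly.

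Replicate numbers do not pair the samples: same-numbered samples' deviations had a mean correlation of -0.0429, against 0.00896 for other pairs, and 0 samples correlated best with their own number. The replicate block gave 10325 called genes, 5416 higher and 4909 lower, with 7 of the 10 genes called. Depth limits Sox11 most, with 2 to 5 control counts per library, then Sox9, with 4 to 14.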

Other observations

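The Notch pathway, which signals between neighbouring cells in the developing and injured nephron, gave shares of calls near those of all tested genes, 34.2% higher and 31.1% lower. Of 16 genes tested, 6 were called higher and 4 lower, with a median log2 fold change of 0.39. Heyl, a Notch target gene, rose from a mean of 4.18 to 12.8 CPM (1.62 ± 0.24 SE, edgeR adjusted p = 9.79e-05). Rbpj, the DNA-binding factor of the pathway, rose from 27.4 to 54.2 CPM (0.98 ± 0.09 SE), and Lfng, a sugar transferase that modifies Notch receptors, from 6.46 to 12.4 CPM (0.94 ± 0.19 SE). Dll4, an endothelial ligand, fell by 0.80 ± 0.22 (SE) on the log2 scale, and it was at -0.29 and not called with total-count scaling (adjusted p = 0.256), where 10 genes of the list were called higher and 0 lower, beside 56.4% higher and 15.5% lower over all tested genes on that scale.

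Urothelium, which lines the renal pelvis, can be caught in whole-kidney samples. The summed level of its 5 uroplakin genes was 3.25 to 11 CPM in the controls, 36.3 CPM in puberulic acid replicate 3 and 1.3 to 8.2 CPM in the other treated samples. None of the 5 was called with all samples, and without that replicate 1 was called lower, Upk1b at -1.46 (edgeR adjusted p = 0.0451) against 0.74 with it. The basal keratin Krt5 rose from 0.278 to 19.5 CPM (6.07 ± 0.28 SE, edgeR adjusted p = 1.55e-08).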
